A study of Arabidopsis thaliana with 12 samples.

Results

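A set of 106 probe sets, out of 22746 on the array, read lower in whole Arabidopsis thaliana seedlings of 3 stomatal mutants than in wild type (WT). A probe set, the group of probes that reads 1 transcript or several close ones, was taken when its mean log2 value in spch, in scrm-D and in scrm-D;mute each lay at least 1 below the WT mean, that is at least 2-fold lower. Probe sets with 1 mutant mean 1 or more below both other mutant means were left out, as were DFR, UF3GT and symbols that start with EXPA, XTH, SCPL, PDF or COR. Of the 116 probe sets at least 1 below WT in every mutant, 5 were left out through the clause on 1 mutant and 5 through their symbols. The differences from WT chose these genes, so those differences are given below as a description and not as a test. For scale, 72 probe sets lay at least 1 above WT in all 3 mutants.

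Of the 106 probe sets, 60 are paired with 1 gene, 2 with several genes, and 44 are not listed in the platform annotation used here and stay unnamed. The 60 stand for 59 genes, because AT1G31690 is read by 2 probe sets. Nearest to the limit on the inside were AT2G43550, with a difference of −1.001 in scrm-D, AT1G76020, with −1.001 in spch, and AT1G75710, with −1.01 in scrm-D. Just outside it were AT1G22160, with −0.99 in scrm-D;mute, AT3G46490, with −0.98 in spch, and BGLU47, with −0.97 in scrm-D. The clause on 1 mutant left out the thionin gene AT1G66100, whose differences of −4.13 in spch, −4.49 in scrm-D and −5.82 in scrm-D;mute were larger than those of any named member in spch and scrm-D;mute.

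Stomata are pores of the shoot epidermis, each formed by a pair of guard cells that arise from a lineage of dividing precursors. The transcription factor SPCH starts the lineage, MUTE ends the divisions of the precursor called the meristemoid, and SCRM is the partner protein of both. A plant without SPCH makes no stomata, whereas the dominant allele scrm-D drives epidermal cells into the lineage, so the 3 mutants lack the ordinary mixture of pavement cells and scattered stomata in different ways.

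All seedlings were of the Col-0 ecotype and were harvested whole 5 days after germination. Each genotype had 3 arrays, from biological replicates numbered 2, 3 and 4. Stratification, a cold treatment of seeds, took 2 days (4 °C). The growth temperature was 21 °C, and a day was split into 18 light hours and 6 dark hours. These conditions did not differ between the genotypes. WT was the control. Per the labels, pavement cells alone make up the epidermis in spch, guard cells in scrm-D, and meristemoids almost throughout in scrm-D;mute, which is called the double mutant below. For scrm-D the title and the genotype field were followed, since another field of those samples carries the name of the double mutant. Which spch and mute alleles were grown is not given in the sources used. The SPCH probe set read 6.15 to 6.71 on WT arrays and 5.11 to 5.41 on spch arrays. It read 7.13 to 8.17 on scrm-D arrays and 10.56 to 10.89 on double mutant arrays. MUTE read 4.42 to 4.52 on WT arrays, 6.57 to 7.58 on scrm-D arrays and 10.61 to 10.998 on double mutant arrays. For both genes the arrays labelled scrm-D did not overlap those of the double mutant. Where the lesions lie relative to the probes was not analysed here. In whole seedlings fewer cells of a type and less RNA per cell cannot be told apart. Markers of mesophyll read high in WT (RCA 13.97, PRK 12.79). The guard cell genes GC1, FAMA and BLUS1 read 10.66, 6.90 and 6.66, and the root hair genes EXPA7 and EXPA18 read 6.23 and 6.504.

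The WT means of the members ran from 5.51 to 12.92 with a median of 8.17, against a median of 6.46 over all probe sets. No member had a WT mean under the background level of 4.99. This is the 95th percentile of bacterial control values in genotypes where the matching transcript was taken as absent. Absence was judged from a low genotype mean of the control, not from a label. The highest of those control values was 6.61, and 10 members had WT means below it. Since the rule sets WT at least 1 above the mutants, a low WT level limits membership. In the mutants 15 members lay under that level in spch, 20 in scrm-D and 25 in the double mutant, with 12 under it in all 3. For these the fold was taken against the background level and is written as at least. The log2 values as deposited were used, and the error of a difference is the standard error (SE) of limma, which is the same for the 3 mutants of a gene because all had 3 arrays.

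The median difference of the members from WT was −1.60 in spch, −1.51 in scrm-D and −2.02 in the double mutant, while the medians over all probe sets were −0.00448, −0.01 and −0.00737. At least 2 below WT (4-fold) were 24 members in spch, 29 in scrm-D and 55 in the double mutant. At least 3 below WT (8-fold) were 4, 9 and 13. The 3 comparisons share the WT arrays, so an array of WT that read high would lower all of them together.

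**Figure D1:**
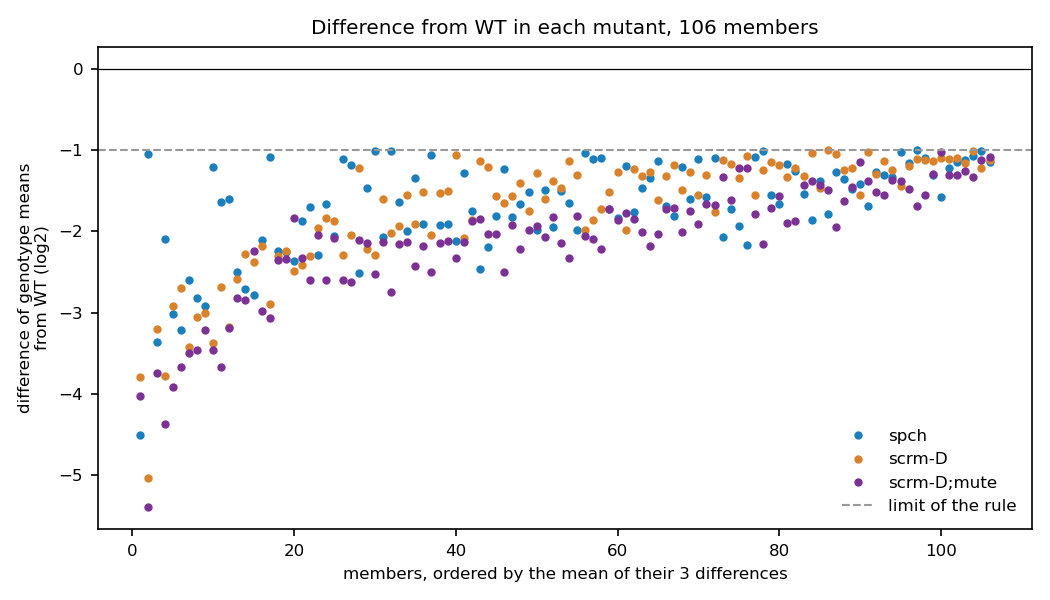
Difference of the genotype mean from the WT mean (log2, y axis) in spch, scrm-D and scrm-D;mute for the 106 members, ordered along the x axis by the mean of their 3 differences, with the limit of the rule at −1 as a dashed line. Most members lie between −1 and −3, and the double mutant is the lowest of the 3 in 74 of them.

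By limma with Benjamini-Hochberg adjustment over all probe sets, 99 members were called lower than WT in spch, 98 in scrm-D and 105 in the double mutant at an adjusted p under 0.05. Over all probe sets the share called lower was 9.93% in spch, 7.39% in scrm-D and 13.6% in the double mutant, and since the rule used these differences nothing is read from the counts. In all 3 mutants 92 members were called, where 1.82% of all probe sets were. The 14 members that missed a call in at least 1 mutant include AT5G33370 and AT3G12900 in spch, and AT4G24780, AT2G43550 and AT1G75710 in scrm-D. With the replicate number as a block, AT5G33370 in spch and AT4G24780 and AT1G75710 in scrm-D were called, while AT3G12900 and AT2G43550 were not, and no member lost a call. All 3 arrays lay below the 3 WT arrays for 104 members in spch, 102 in scrm-D and 106 in the double mutant, against 18.1%, 15.5% and 20.2% of all probe sets. In every mutant at once this held for 101 members, against 3.87%. Of the 5 with overlap AT5G22580, which encodes a protein with a stress-responsive barrel domain, is the named one.

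The members were chosen on all arrays, so no unused array was left on which to read them. For sets chosen anew, values on arrays left out of the choice were read. The rule was applied to the arrays of 2 replicate numbers, and the arrays of the third number were then compared with each other, an alternative chosen after the data were seen. The 3 mutant arrays of a number were read against the same WT array, so 1 high WT array lowers all 3 readings. With number 2 left out, 114 probe sets were chosen, and 69 of them (60.5%) read at least 1 below the WT array in all 3 mutant arrays of number 2, where 0.69% of all probe sets did. With number 3 left out, 68 of 136 (50%) did so against 0.532%, and with number 4 left out, 59 of 97 (60.8%) against 0.835%. Below the WT array by any amount in all 3 mutants were 114 of 114, 127 of 136 and 92 of 97 (100%, 93.4% and 94.8%), against 20.9%, 20.4% and 27.9% of all probe sets. The left-out medians ran from −1.17 to −1.73 in spch, from −1.27 to −1.46 in scrm-D and from −1.74 to −1.995 in the double mutant. Of the 114, 136 and 97 probe sets, 93, 96 and 76 are members. The values describe the sets chosen anew and are no independent test of the members.

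Among the named genes the lowest mean of the 3 differences was that of AT2G33850, which read 9.996, 9.78 and 9.67 on WT replicates 2, 3 and 4. It read 8.94, 9.10 and 8.27 in spch, 4.88, 5.09 and 4.37 in scrm-D, and 4.83, 4.38 and 4.05 in the double mutant. It was 2.06-fold lower in spch, with a difference of −1.04 ± 0.25 (SE, n = 3), but at least 28.4-fold lower in both genotypes with scrm-D. Its spch difference was −0.79 without spch replicate 4 and −0.95 without WT replicate 2, so it would then miss the limit in spch. With means under the background level raised to it, the span between its mutant means was 3.78, the widest among the members, and the spch arrays overlapped neither the WT arrays nor those of the other mutants.

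AT1G31690, which encodes a copper amine oxidase, an enzyme that oxidises polyamines in the cell wall, was lower on both of its probe sets. The first read 8.02, 7.86 and 8.003 in WT, 5.87, 5.57 and 4.65 in spch, 4.37, 4.50 and 4.75 in scrm-D, and 4.56, 4.31 and 4.50 in the double mutant. The second read 7.01, 6.92 and 6.53 in WT, 5.24, 4.84 and 4.76 in spch, 4.43, 4.35 and 4.45 in scrm-D, and 4.54, 4.45 and 4.48 in the double mutant. Both genotypes with scrm-D had means under the background level on both probe sets. The spch mean lay above it on the first and under it on the second, which gives no order among the mutants. The fold on the first was 6.04 in spch and at least 7.84 in scrm-D and the double mutant. No other named member gene had a second probe set paired with it alone.

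AT1G13650 read 8.27, 8.40 and 7.87 in WT, 5.96, 5.76 and 4.36 in spch, 5.30, 5.31 and 4.76 in scrm-D, and 5.07, 4.67 and 4.40 in the double mutant. AT2G28780 read 8.04, 8.07 and 7.15 in WT, 4.78, 4.73 and 4.98 in spch, 4.72, 4.91 and 4.60 in scrm-D, and 4.72, 4.54 and 4.35 in the double mutant. AT2G28780 was at or under the background level on every mutant array, at least 6.79-fold below WT in each mutant. AT4G01390 read 8.70, 8.90 and 7.86 in WT, 5.94, 5.97 and 6.05 in spch, 6.23, 5.91 and 5.55 in scrm-D, and 5.76, 5.70 and 5.54 in the double mutant. Its 9 mutant arrays lay within 5.54 to 6.23, above background, and its differences of −2.50, −2.59 and −2.82 ± 0.23 (SE, n = 3) were of like size in spch, scrm-D and the double mutant.

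AT5G01790 read 7.93, 7.75 and 7.84 in WT, 6.68, 6.38 and 5.38 in spch, 5.56, 5.29 and 5.77 in scrm-D, and 4.95, 5.41 and 5.39 in the double mutant. AT3G46270 read 7.01, 6.58 and 6.97 in WT, 4.69, 4.51 and 4.50 in spch, 4.78, 5.00 and 4.90 in scrm-D, and 4.92, 4.56 and 4.96 in the double mutant. AT3G46270 had mutant means under background in all 3 genotypes, at least 3.64-fold below WT. AT5G44680, of the DNA glycosylase family of base repair enzymes, read 9.48, 9.22 and 9.52 in WT, 8.94, 8.67 and 7.29 in spch, 6.94, 7.39 and 7.01 in scrm-D, and 6.86, 7.14 and 6.43 in the double mutant. On spch replicates 2 and 3 AT5G44680 lay less than 1 below its WT mean, and only replicate 4 brought the spch mean to −1.11.

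**Figure D2:**
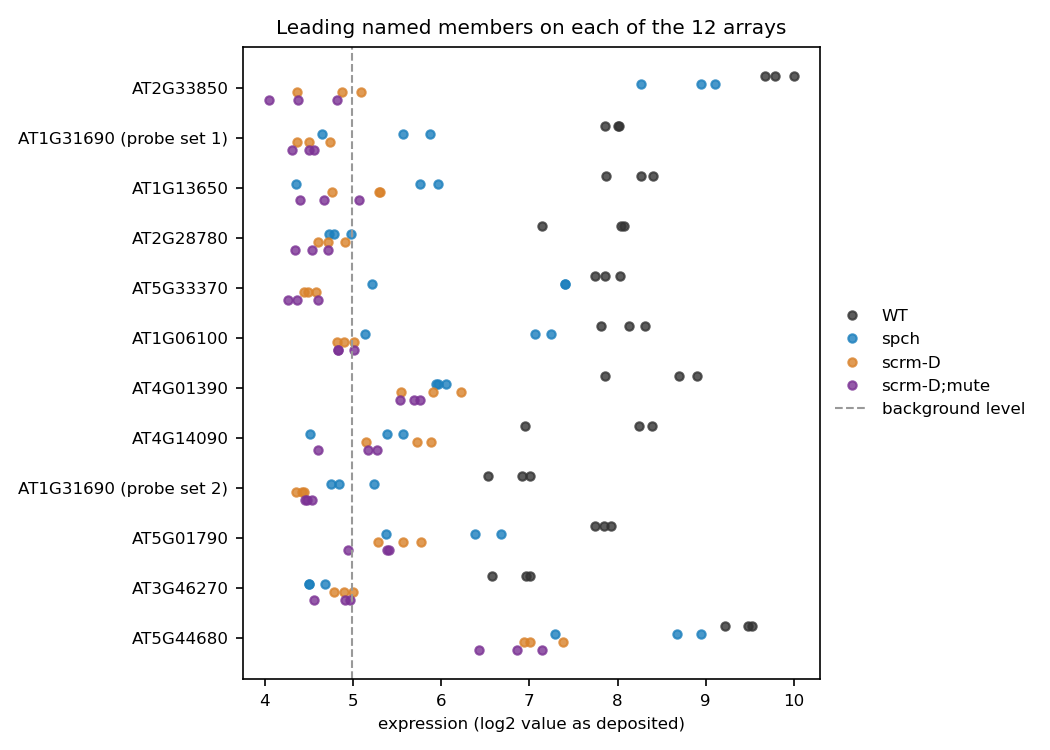
Expression (log2 value as deposited, x axis) on each of the 12 arrays for the 12 named probe sets with the lowest mean difference, 1 point per array, coloured by genotype, with the background level of 4.99 as a dashed line. The WT points lie to the right of all mutant points in each row, and for AT5G33370, AT1G06100 and AT5G44680 the spch points split, with replicate 4 at 5.21, 5.14 and 7.29.

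The 25 named genes outside the role groups had medians of −1.68 in spch, −1.53 in scrm-D and −2.04 in the double mutant, and include the leading genes above except AT1G31690. AT5G02890, of the HXXXD acyltransferase family, differed by −1.35, −1.90 and −2.43 in spch, scrm-D and the double mutant. AT4G20320, which encodes a CTP synthase, an enzyme of nucleotide synthesis, differed by −1.10, −1.55 and −1.90. AT1G03820 was lowest in spch, with −2.47 in spch, −1.13 in scrm-D and −1.85 in the double mutant. AT2G34620, of the mTERF family of organelle gene regulators, read 10.71 in WT and differed by −1.02, −1.44 and −1.38.

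The 44 unlisted probe sets had medians of −1.62 in spch, −1.60 in scrm-D and −2.04 in the double mutant, from a WT median of 8.47. The probe set with the lowest mean difference of all 106 is not listed in the annotation. It read 9.65, 9.13 and 8.01 in WT, with spch arrays from 4.32 to 4.55, scrm-D arrays from 4.85 to 5.52 and double mutant arrays from 4.82 to 5.02. It was at least 15.4-fold lower in spch and in the double mutant and 13.8-fold lower in scrm-D. The 2 probe sets paired with several genes differed by −3.36 and −1.86 in spch, −3.20 and −1.04 in scrm-D, and −3.74 and −1.38 in the double mutant.

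From general knowledge of the proteins, 34 of the 59 named genes were put into 6 role groups after their values were seen, and 25 were left ungrouped. The largest group, with 11 genes, acts on the cell wall: enzymes that cut or modify cellulose and pectin, their inhibitors, and expansins, proteins that loosen the wall as cells grow. Its medians were −1.58 in spch, −1.22 in scrm-D and −1.71 in the double mutant, and the smallest differences from WT in the group ran from −1.01 in spch to −1.14 in scrm-D. The lowest difference in the group was −1.497 in scrm-D, −2.52 in spch and −2.18 in the double mutant.

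GH9B8, an endoglucanase of the family that trims cellulose-like glucans, read 7.77, 8.07 and 7.42 in WT, 5.43, 5.57 and 4.70 in spch, 6.38, 6.92 and 6.30 in scrm-D, and 5.59, 5.90 and 5.45 in the double mutant. The 3 scrm-D arrays of GH9B8 lay between the WT arrays and those of the other mutants without overlap. EXLB1, an expansin-like protein, read 7.74, 7.79 and 7.89 in WT, 5.94, 6.17 and 5.59 in spch, 5.97, 6.63 and 6.33 in scrm-D, and 5.76, 5.70 and 5.59 in the double mutant. GH9C2, an endoglucanase with a carbohydrate-binding module, was 4.56-fold lower in spch, 2.32-fold in scrm-D and 4.09-fold in the double mutant, from 10.70 ± 0.11 (SD, n = 3) in WT. TBL36, of the family that acetylates wall polysaccharides, was 3.94-fold, 2.47-fold and 3.52-fold lower in the same order, and the beta-expansin EXPB1 3.17-fold, 2.26-fold and 2.95-fold.

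Enzymes of pectin, the gel of the wall, made up the rest of the group. The pectate lyase genes AT1G67750, AT4G24780 and AT3G07010, which encode enzymes that cut de-esterified pectin, differed from WT by −1.58, −1.31 and −1.01 in spch and by −1.66, −1.55 and −1.13 in the double mutant. In scrm-D they differed by −1.31, −1.14 and −1.22. AT1G02810, which encodes a pectin methylesterase, the enzyme that removes methyl groups from pectin, differed by −1.48, −1.22 and −1.45 ± 0.13 (SE, n = 3) in spch, scrm-D and the double mutant. AT5G62360 and AT5G20740, of the family of pectin methylesterase and invertase inhibitors, were lowest in the double mutant, at −2.18 and −1.71. AT4G24780 was the gene of this group without a call in scrm-D, and it was called there with the replicate block.

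**Figure D3:**
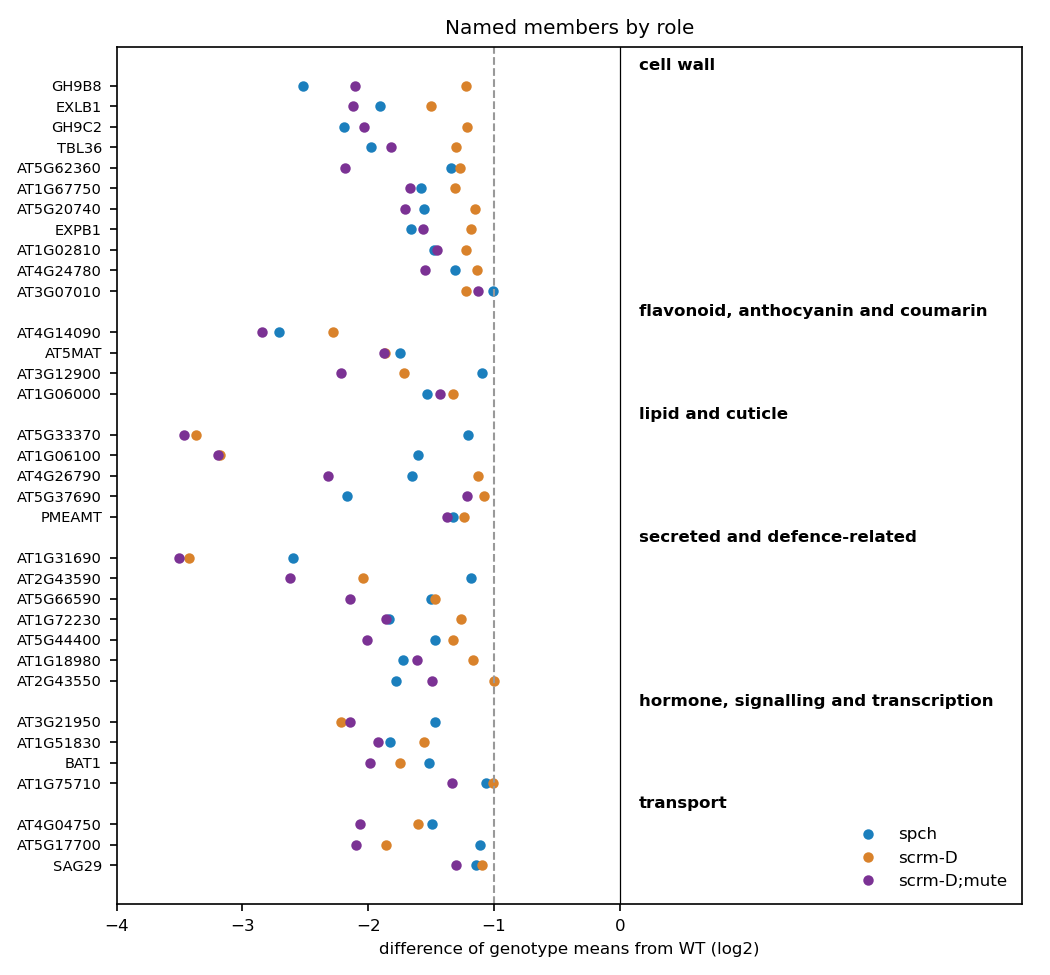
Difference of the genotype mean from the WT mean (log2, x axis) in spch, scrm-D and scrm-D;mute for the 34 named members grouped by role, with the limit of the rule at −1 as a dashed line and AT1G31690 shown by the first of its probe sets. Within the cell wall group scrm-D is the mutant nearest to WT for all genes but AT3G07010, and among the lipid genes AT5G33370 and AT1G06100 it is spch.

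Relatives of these genes that are not members behaved in various ways. Of 15 measured GH9 endoglucanase genes, limma called 5 lower in spch, 4 in scrm-D and 4 in the double mutant, and 3 in all of them, GH9C2, GH9B8 and GH9B7, of which the first 2 are members by the rule. It called none higher in spch, 2 in scrm-D (GH9B12 and GH9B18) and 1 in the double mutant (GH9A3). Over all probe sets 9.93%, 7.39% and 13.6% were called lower, 1.82% in all 3, and 9.6%, 6.76% and 14.1% higher. GH9B7 was no member, at −0.61, −0.74 and −0.83 in spch, scrm-D and the double mutant. GH9B12, under background in WT, spch and the double mutant, rose in scrm-D by 1.94 (limma, adjusted p = 8e-06). The median of the 15 was −0.16, −0.04 and −0.12. Of 22 TBL genes 5, 4 and 8 were called lower and 1, 2 and 2 higher, with TBL36 the one called lower in all 3. Of 4 EXPB genes, EXPB3 read 10.59 in WT, 7.83 in spch, 9.07 in scrm-D and 10.66 in the double mutant, so that it was called lower in spch and scrm-D alone. These families were assembled by symbol after the members were known.

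Genes of flavonoid and phenolic metabolism formed a group of 4. Anthocyanins are the red and purple pigments of stressed or young shoots, built from a flavonoid core to which sugars and acyl groups are then added. AT4G14090, which encodes anthocyanidin 5-O-glucosyltransferase, an enzyme that adds a sugar, read 8.39, 8.25 and 6.95 in WT, 5.57, 5.38 and 4.51 in spch, 5.89, 5.72 and 5.15 in scrm-D, and 5.27, 5.17 and 4.61 in the double mutant. Replicate 4 was the lowest array of AT4G14090 in every genotype, and each mutant array lay below each WT array. AT5MAT, the malonyltransferase that acts on the product of that step, read 7.07, 7.02 and 6.14 in WT, 5.18, 5.30 and 4.51 in spch, 5.15, 4.93 and 4.57 in scrm-D, and 4.84, 5.30 and 4.48 in the double mutant. The mutant means of AT5MAT lay at or under the background level, so their order is not readable. DFR and UF3GT, earlier enzymes of the same pathway that the rule leaves out by name, differed by −3.32 and −2.46 in spch, −2.75 and −2.26 in scrm-D, and −3.98 and −3.07 in the double mutant.

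The other genes of the group lie outside anthocyanin synthesis. AT1G06000, which encodes a rhamnosyltransferase of flavonols, colourless relatives of anthocyanins, was 2.90-fold, 2.50-fold and 2.69-fold lower in spch, scrm-D and the double mutant, from 10.27 ± 0.23 (SD, n = 3) in WT. AT3G12900 encodes scopoletin 8-hydroxylase, which makes the coumarin fraxetin that roots secrete to take up iron. It read 7.31, 6.85 and 7.73 in WT and 6.81, 6.84 and 4.95 in spch, so that 2 of its spch arrays lay just under the lowest WT array, and its mean difference of −1.10 ± 0.43 (SE, n = 3) was not called.

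The lipid and cuticle group held 5 genes. The cuticle is the waxy polyester layer that epidermal cells lay down on the outer surface. AT5G33370, an enzyme of the GDSL family related to cutin synthase, which links cutin monomers, read 7.75, 8.03 and 7.86 in WT, 7.40, 7.40 and 5.21 in spch, 4.59, 4.49 and 4.45 in scrm-D, and 4.26, 4.61 and 4.37 in the double mutant. AT1G06100, of the fatty acid desaturase family, read 8.31, 8.13 and 7.81 in WT, 7.06, 7.24 and 5.14 in spch, 4.90, 5.01 and 4.82 in scrm-D, and 4.83, 5.02 and 4.83 in the double mutant. For both genes spch replicates 2 and 3 lay below every WT array but nearer to WT than to the genotypes with scrm-D, and spch replicate 4 lay near those genotypes. Without that array the spch differences were −0.48 for AT5G33370 and −0.93 for AT1G06100, so neither would meet the limit in spch. Other GDSL-type lipase genes did not have that order. AT5G37690 read 5.75, 5.75 and 5.76 in spch and 6.31 to 7.31 in the other mutants, and AT4G26790 was lowest in the double mutant, at −2.32. PMEAMT, a methyltransferase of phosphocholine synthesis that supplies membrane lipids, was among the evenest members, at 10.01, 10.09 and 9.96 in the 3 mutants against 11.34 ± 0.11 (SD, n = 3) in WT.

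The secreted and defence-related group held 7 genes, with AT1G31690 the lowest. AT2G43590, of the chitinase family that attacks fungal walls, read 10.14, 10.39 and 9.26 in WT, 8.91, 8.76 and 8.57 in spch, 7.93, 7.76 and 7.99 in scrm-D, and 7.51, 7.08 and 7.35 in the double mutant. The 4 genotypes did not overlap for AT2G43590. AT5G66590, a relative of the pathogenesis-related protein PR-1, and AT5G44400, of the berberine bridge enzyme family, were lowest in the double mutant, at −2.14 and −2.01. The germin-like gene AT1G18980 and AT2G43550, which encodes a small cysteine-rich protein of the knottin type, were lowest in spch, at −1.72 and −1.78. AT1G72230, of the plastocyanin-like family of copper proteins, differed by −1.83 in spch and −1.86 in the double mutant and by −1.26 in scrm-D.

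Among genes of hormones, signalling and transcription, AT3G21950, of the SABATH family that methylates hormones and other small acids, read 7.10, 7.30 and 6.97 in WT, 5.96, 5.85 and 5.15 in spch, 4.95, 5.02 and 4.74 in scrm-D, and 4.92, 5.00 and 5.01 in the double mutant. AT1G51830, which encodes a receptor-like kinase with leucine-rich repeats, read 8.29, 7.55 and 8.04 in WT, 6.23, 5.72 and 6.45 in spch, 6.54, 5.68 and 6.98 in scrm-D, and 6.23, 5.60 and 6.28 in the double mutant. Replicate 3 was the lowest array of AT1G51830 in every genotype. Its neighbour in the genome, AT1G51840, was also a member. Its mean in each mutant was under the background level, at least 2.53-fold below WT. BAT1, an acyltransferase that inactivates brassinosteroids, the growth-promoting steroids of plants, was 2.86-fold, 3.36-fold and 3.96-fold lower.

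The transport group held 3 genes. AT4G04750, of a family of sugar transporters, read 6.55, 6.60 and 5.83 in WT, 5.03, 5.09 and 4.37 in spch, 5.22, 4.62 and 4.33 in scrm-D, and 4.27, 4.33 and 4.17 in the double mutant. AT5G17700, a MATE-type efflux carrier, read 7.96, 7.39 and 7.82 in WT, 6.94, 7.23 and 5.66 in spch, 5.89, 5.96 and 5.73 in scrm-D, and 5.79, 5.61 and 5.47 in the double mutant. SAG29, the sucrose carrier SWEET15 that rises in ageing leaves, differed by −1.14, −1.10 and −1.30. Of 15 measured SWEET genes, limma called 2, 3 and 4 lower and 2, 0 and 1 higher in spch, scrm-D and the double mutant. Over all probe sets 9.93%, 7.39% and 13.6% were called lower and 9.6%, 6.76% and 14.1% higher. In all 3 mutants 2 were called lower, SAG29 and SWEET13, where 1.82% of all probe sets were. SWEET13 differed by −0.62, −0.55 and −0.73, from 5.37 in WT to means under the background level in every mutant. SWEET2 rose by 2.03 in spch and fell by 0.51 in scrm-D (limma, adjusted p = 9e-06 and 0.0476).

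The members differed among themselves in which mutant was lowest. The double mutant was the lowest in 74 of 106 (69.8%), spch in 23 (21.7%) and scrm-D in 9 (8.49%), where over all probe sets the shares were 34.4%, 34.5% and 31.1%. The highest mutant was scrm-D in 53 members, spch in 47 and the double mutant in 6. Over all probe sets these shares were 26.5%, 42.1% and 31.4%. The double mutant lay below scrm-D in 93 members, with a median difference of −0.37, and below spch in 81, where the median was −0.26, or −0.47 without spch replicate 4 and −0.17 without double mutant replicate 4. For scrm-D minus spch it was 0.04, and it turned to −0.0205 with array weights, −0.03 without scrm-D replicate 2 and −0.20 without spch replicate 4. Over all probe sets the 3 medians were 0.00223, −0.0237 and −0.0283 in the same order. The shares of all probe sets that lay lower in the double mutant were not counted. The double mutant was also the lowest in 57 of the 81 members with no mutant mean under background (70.4%). The rule limits how far 1 mutant can lie below the others, so these values describe the set and were not tested.

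The span between the highest and the lowest mutant mean was 0.66 in the median, and it was under 0.5 for 33 members. Spans between means at or under the background level say nothing on evenness. Among the 81 members with no mutant mean under that level the median span was 0.67 and 23 were under 0.5, and the narrowest named genes there were PMEAMT (0.13), AILP1 (0.14) and SAG29 (0.21). With means under background raised to it, the span exceeded 2 for AT2G33850 and 2 unlisted probe sets. In 9 members spch lay 1 or more above both other mutants, among them AT2G33850, AT5G33370, AT1G06100 and AT5G44680. In the other direction, spch at least 0.5 below both was seen in 4 members, of which AT5G37690 and AT1G03820 are named. The double mutant lay at least 0.5 below both others in 20 members, among them AT4G26790, AT5G62360, AT5G66590 and AT2G43590.

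The arrays of replicate number 4 tended to be the low ones. Replicate 4 was the lowest of the 3 arrays in 69 members in WT, 83 in spch, 67 in scrm-D and 62 in the double mutant. These are 65.1%, 78.3%, 63.2% and 58.5% of the members, where 34.0%, 35.6%, 37.0% and 41.0% of all probe sets were lowest there. On spch replicate 4, 31 members read 1 or more below both other spch arrays, 0.73% of all probe sets doing so. These 31 include AT5G33370, AT1G06100, AT5G44680, AT5G17700, AT3G12900 and GH9C2. The median of the members relative to their WT means was −1.32 and −1.36 on spch replicates 2 and 3 and −2.04 on replicate 4. The rule applied without spch replicate 4 gave 77 probe sets, 76 of them among the 106, and without WT replicate 2 it gave 84, with 83 shared. The part of the replicate number in these levels was not tested, and the readings within a number above compare arrays of the same number.

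A control probe set for 25S ribosomal RNA moved with the genotypes. It read 7.11 ± 0.49 (SD, n = 3) in WT, 9.63 ± 1.25 in spch, 9.60 ± 0.56 in scrm-D and 9.62 ± 2.31 in the double mutant. On double mutant replicate 4 it read 6.96, within the WT range of 6.56 to 7.50. There the median of the members was −2.21, with 104 of 106 at least 1 below their WT means. The median over all probe sets on that array was −0.02. The rule used that array, so low values of the members there are largely set by the choice. On double mutant replicates 2 and 3, with 25S values of 10.84 and 11.06, the medians of the members were −1.92 and −1.86. With the 25S value as a covariate in limma the medians of the members were −1.55 in spch, −1.55 in scrm-D and −2.01 in the double mutant. In that fit 79, 85 and 101 members were called, and the shares over all probe sets are not given here. Since the rule used these differences, nothing is read from the counts.

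**Figure D4:**
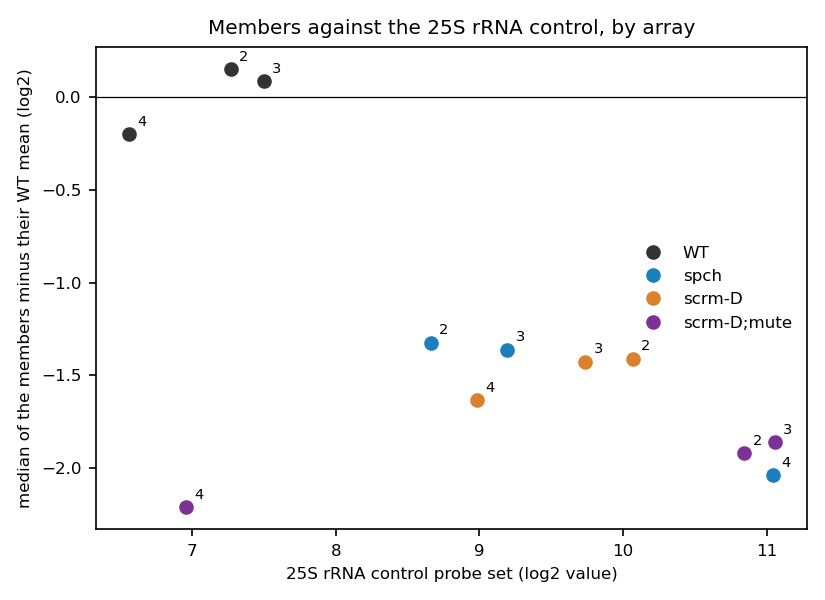
Median over the 106 members of the array's value minus the WT mean (log2, y axis) against the log2 value of the 25S rRNA control probe set (x axis), 1 point per array with its replicate number, coloured by genotype. The mutant arrays lie between −1.32 and −2.21, and double mutant replicate 4 lies at −2.21 with a 25S value of 6.96, near the WT arrays on the x axis. All arrays shown took part in the choice of the members.

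The pathway lists, 16 with 224 genes, had 36 genes paired with a single-gene probe set in the annotation used here. That annotation lists no gene for 8794 of 22810 probe sets, controls included. A listed gene without a pairing may still be on the array. Of the 36, limma called 17 lower and 1 higher in spch, 9 lower and 6 higher in scrm-D, and 16 lower and 2 higher in the double mutant. The shares over all probe sets were 9.93% lower and 9.6% higher in spch, 7.39% and 6.76% in scrm-D, and 13.6% and 14.1% in the double mutant. Lower in all 3 mutants were 4 of the 36, where 1.82% of all probe sets were: DFR, UF3GT, the thionin gene AT1G66100 and PMEAMT, of which PMEAMT alone is a member. The 44 unlisted members may hold other listed genes, so how many of the 224 are members is not settled. In the list of phosphocholine synthesis the relative of PMEAMT, AT1G73600, fell in spch, from 11.43 to 8.41, and read 10.93 in scrm-D and 10.60 in the double mutant. None of the 3 guard cell genes, the 2 root genes or the 5 mesophyll genes with a pairing was called lower in all 3 mutants. Their lists hold 11, 17 and 27 genes. The guard cell gene BLUS1 read 6.66 in WT, 5.46 in spch, 10.01 in scrm-D and 6.07 in the double mutant, an order that no member can have under the rule. In the photosynthesis list no gene was called in spch, with a median of −0.01, while 3 of 5 were called lower in scrm-D and 4 of 5 in the double mutant. The lists of jasmonate response and of iron and nitrate uptake had no gene with a pairing, so nothing is said on them.

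The 59 named genes lay on all 5 chromosomes, with 17, 8, 9, 10 and 15 genes on chromosomes 1 to 5. Within 5 genes of each other were 2 pairs, AT1G51830 with AT1G51840, which are adjacent, and AT2G43550 with AT2G43590. Whether their probes share signal was not tested.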

How the data were processed

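For each of 12 arrays the authors deposited log2 expression values, 1 per probe set, with array medians from 6.39 to 6.53. RMA and limma are named in the submitters' processing notes, without versions, and the deposited log2 values were used as they are. No 2 arrays were copies. The members and gene lists were chosen with earlier results of these data known. The 64 control probe sets were left out. A limma model (limma 3.58.1, R 4.3.3) took in all 12 arrays and estimated a mean for each genotype, with default moderation, two-sided tests and Benjamini-Hochberg adjustment over 22746 probe sets. The fit was tested on simulated data. Names come from GEO's platform annotation, and symbols and gene order from the reference TAIR10.1. The build used by the authors is not named. Any member with a single-gene probe set could be named. Given on every array were the 12 lowest by mean difference and the leading 2 of each role group, and by their differences the 3 nearest the limit on each side. Families were formed by symbol. Symbols were compared without case, which leaves out scpl31. Correlations of deviations between arrays of the same replicate number and WT were 0.138 to 0.174 for spch, 0.103 to 0.299 for scrm-D and 0.0826 to 0.250 for the double mutant. Over a limit of 0.1 this counts as pairing for spch and scrm-D only, and it comes from the values, since no label ties a number to a day or batch. P-values cover only the spread between these arrays, whose number limits the precision. Promoter and protein sequences were not used here. Alternatives were other limits and readings of the rule, array weights, cyclic loess, an intensity trend, the 25S control as a covariate, the replicate block, 2 genotypes alone, no dim probe sets and leaving out each array.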

Additional observations from a re-analysis of the deposited data

Results flagged for a closer look

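The 25S rRNA control probe set, which no comparison uses, had means of 9.63 in spch, 9.60 in scrm-D and 9.62 in the double mutant, above the WT mean of 7.11. Its values by array stand beside the members above.

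On double mutant replicate 4 a probe set for the bacterial control transcript phe, which read 13.14 to 13.50 on the scrm-D arrays, read 5.83. The 8 other arrays where that transcript was taken as absent read between 3.84 and 4.30. Its part in the values of the members was not tested.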

How the results depend on the processing

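Membership depends on the limit: 186 probe sets met the rule at 0.8 below WT, and 32 at 1.5. Other readings of the rule gave 102 with medians of arrays (83 shared with the 106), 110 without the clause on 1 mutant, 102 without dim probe sets and 107 with symbols compared by case. Leaving out 1 array, or 1 replicate number in every genotype, gave 77 to 136 probe sets. The number of members called lower ran from 87 to 101 in spch, 84 to 104 in scrm-D and 104 to 106 in the double mutant without 1 array. With the replicate number as a block it was 105, 104 and 106. Since the rule used these differences and no count can exceed 106, nothing is read from how these counts moved. Shares over all probe sets in these fits are not given here. Medians from WT ran from −1.74 to −1.33 in spch, −1.58 to −1.43 in scrm-D and −2.07 to −1.92 in the double mutant without 1 array, and double mutant replicate 4 alone gave −2.21. The median between scrm-D and spch, 0.04, changed sign to −0.0205 with array weights and ran from −0.20 to 0.19 without 1 array, with −0.03 without scrm-D replicate 2 and −0.20 without spch replicate 4. The cause was not tested. The medians of the double mutant against scrm-D and spch ran from −0.45 to −0.28 and from −0.47 to −0.17. Over the 81 members with no mutant mean under background, chosen after seeing the data, the 3 medians were −0.42 (double mutant minus scrm-D), −0.27 (minus spch) and 0.07 (scrm-D minus spch). Listed genes with a pairing that were called lower in all 3 mutants numbered 4 to 5 under every setting run. Signal near the background level limits the size of the larger differences.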
